A study of Mus musculus with 4 samples.

Results

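Toll-like receptors were examined in Langerhans cells, the dendritic cells of the epidermis, with and without the aryl hydrocarbon receptor (AhR). The set held the receptors Tlr1, Tlr2, Tlr3, Tlr4, Tlr6, Tlr7 and Tlr9, the Tlr4 co-receptors Cd14 and Ly96, and the adaptor Myd88. It took every probe set that the platform annotation gives to one of these genes alone, which were 14 of 22626 probe sets tested and 10 of 12393 genes. The rule itself uses gene names and no measured value, but the genes were picked with earlier results of these data known. Tlr3 and Tlr4 had 2 probe sets each, Tlr7 had 3 and the other genes had 1.

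The study had 2 arrays of AhR-deficient mice, in which exon 2 of Ahr was lacking, and 2 arrays of wild-type C57BL/6 mice. The strain of the AhR-deficient mice, the age of the animals and the number of mice behind an array are not stated in the labels. In both groups the mice were untreated, epidermal cells of the ear were kept in culture for 16 hours, and living MHC class II-positive cells were then sorted to a purity above 95%. All cells described here had therefore been through culture, and no group was given a microbial ligand. Values are log2 signals after RMA, a method that corrects background and brings arrays to a common distribution, and each difference is the AhR-deficient mean less the wild-type mean on that log2 scale, from n = 2 arrays of each genotype.

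Toll-like receptors are membrane proteins that bind conserved microbial molecules and signal through an intracellular TIR domain. Tlr1, Tlr2, Tlr4 and Tlr6 act mainly at the cell surface on lipoproteins and lipopolysaccharide, while Tlr3, Tlr7 and Tlr9 act in endosomes on nucleic acids. Apart from Tlr3, which signals through Ticam1, they recruit Myd88, and the signal reaches NF-kB and interferon regulatory factors. AhR is a ligand-activated transcription factor that binds DNA with its partner Arnt.

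The RefSeq promoter table for GRCm38.p6 held 6 of the 10 genes, Tlr1, Tlr2, Tlr3, Tlr6, Tlr9 and Myd88, in 8 windows. In the 250 bases before the start, the core of the AhR and Arnt motif, GCGTG on either strand, was in 0 of these 6 genes and in 30.9% of all 27025 genes in the table. That says only that these letters are not in these windows. An NF-kB motif, searched as GGGANTTCC on either strand after the sequences had been seen, was in 1 of the 6 genes, Tlr2, and in 1.63% of all genes. The Tlr2 window is shown because it alone held either motif. It lies at chr3:83841609-83841858 on the minus strand, and the capitals mark 2 overlapping matches, one on each strand.
Tlr2: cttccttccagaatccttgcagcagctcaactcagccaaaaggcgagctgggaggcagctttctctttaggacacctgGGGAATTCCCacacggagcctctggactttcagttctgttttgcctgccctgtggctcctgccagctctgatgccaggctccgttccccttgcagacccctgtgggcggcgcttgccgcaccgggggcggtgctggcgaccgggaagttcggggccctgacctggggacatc

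The 4 arrays correlated at 0.979 to 0.990 over probe sets, and their 25th percentiles lay between 4.54 and 4.57. The Langerhans cell lectin Cd207 had 11.21 and 11.71 in AhR-deficient cells, against 10.999 and 12.06 in wild-type cells. Of 8 Langerhans cell markers, 7 lay above the 25th percentile on all 4 arrays, as did 10024 of all 12393 genes. Without overlap between the genotypes 4 were higher and 1 lower, against 18.8% and 16.6% of all genes. Csf1r, a growth factor receptor, differed by -1.05 (SE 0.26), and H2-Ab1 and Cd74, of MHC class II presentation, by 1.24 (SE 0.27) and 0.93 (SE 0.12). None of the 8 passed in limma. Ahr itself had 8.55 and 8.60 in AhR-deficient cells, against 7.61 and 8.23 in wild-type cells, but the annotation does not place the probes in exon 2, so this does not check the genotype. The 3' minus 5' log2 signal of the Actb controls was 2.34 and 2.61 on AhR-deficient arrays and 3.16 and 2.65 on wild-type arrays. The Gapdh controls gave 2.24 and 2.19 on AhR-deficient arrays and 2.60 and 1.97 on wild-type arrays. The genotypes thus overlapped for Gapdh, but for Actb both wild-type values lay above both AhR-deficient values. Wild-type replicate 1 was highest in both controls. Whether RNA quality differed by genotype was not tested. At an adjusted p under 0.05 in limma, the AhR-deficient cells had 0% of genes called higher and 0.0323% called lower, which were Ahrr, Gpd2, Ier3 and Nr4a2.

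None of the 10 Toll-like receptor, co-receptor and adaptor genes passed the test for a difference between AhR-deficient and wild-type cells. In limma, 0 passed in either direction after Benjamini-Hochberg adjustment over all probe sets, and 0 had an unadjusted p under 0.05, where 3.5% of all genes were higher and 3.04% lower at that limit. The greatest differences were those of Cd14, with 0.71, and Tlr1, with 0.48. The other 8 genes lay between -0.14 and 0.17. Over the 8 genes that lay above the 25th percentile of every array, the ends of the 95% intervals lay between -0.55 (Ly96) and 1.43 (Cd14), so the size that the arrays leave possible differs from gene to gene. The median over the 10 genes was 0.07, against 0.01 over all genes. In 2 of the 10 genes, Cd14 and Tlr7, both AhR-deficient arrays lay above both wild-type arrays, against 18.8% of all genes. The reverse held for 0 of the 10, against 16.6% of all genes. These shares are over few genes and no test over them was made.

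**Figure D1:**
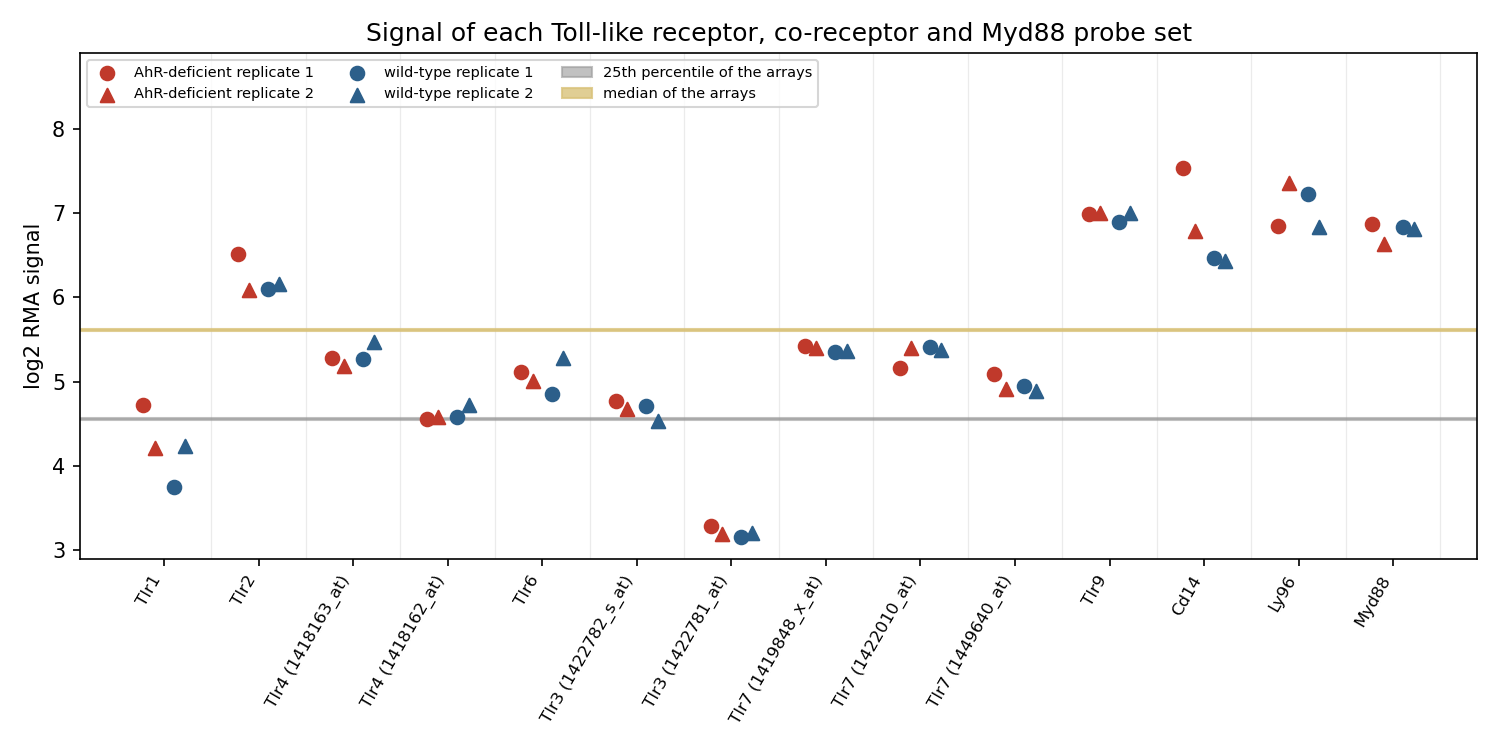
Log2 RMA signal (vertical axis) of the 14 probe sets on the AhR-deficient arrays (red) and the wild-type arrays (blue), with circles for replicate 1 and triangles for replicate 2. Grey and yellow bands span the arrays' 25th percentiles and medians. Tlr1 and a probe set of Tlr3 lie below the grey band on 3 and on all 4 arrays, while Tlr2, Tlr9, Cd14, Ly96 and Myd88 lie above the yellow band on all 4.

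A probe set was taken as detected on an array where it lay above that array's 25th percentile. By their brightest probe sets 8 of the 10 genes were detected on all 4 arrays, as were 10024 of all 12393 genes. Tlr3 was detected on 3 arrays and Tlr1 on 1. With the median of each array as the limit, 5 genes stayed above it on all 4 arrays, namely Tlr2, Tlr9, Cd14, Ly96 and Myd88. The same held for 6830 of all 12393 genes. It held for 1 of 8 T cell markers and 2 of 6 B cell markers too, so these limits do not show which genes Langerhans cells express. Signals of different probes depend on the probes, so these positions do not rank the genes by amount of RNA.

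Among the surface receptors, Tlr2, which senses lipoproteins together with Tlr1 or Tlr6, had 6.52 and 6.09 in AhR-deficient cells, against 6.10 and 6.16 in wild-type cells. The groups overlapped, with AhR-deficient replicate 1 alone standing high. The difference was 0.17 (SE 0.16, 95% interval -0.28 to 0.62, limma adjusted p = 0.919). Without AhR-deficient replicate 1 it was -0.04.

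Tlr1, the partner of Tlr2 for triacylated lipoproteins, had 4.73 and 4.21 in AhR-deficient cells, against 3.75 and 4.23 in wild-type cells. AhR-deficient replicate 1 was high and wild-type replicate 1 low, and the other 2 arrays were nearly equal. Only AhR-deficient replicate 1 lay above its 25th percentile, by 0.18, so on the other 3 arrays Tlr1 was not detected. The difference of 0.48 (SE 0.25, 95% interval -0.21 to 1.16) did not pass in limma (adjusted p = 0.873). Leaving out AhR-deficient replicate 1 gave 0.22, and leaving out the other AhR-deficient array gave 0.74.

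Tlr6, the partner of Tlr2 for diacylated lipoproteins, had 5.12 and 5.003 in AhR-deficient cells, against 4.85 and 5.28 in wild-type cells. The AhR-deficient values lay between the wild-type values. The difference was -0.003 (SE 0.17, 95% interval -0.455 to 0.45).

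Tlr4, the receptor for lipopolysaccharide, was measured by 2 probe sets, and both lay below the median on every array. The brighter had 5.28 and 5.18 in AhR-deficient cells, against 5.27 and 5.47 in wild-type cells, which overlapped. Its difference was -0.14 (SE 0.11, 95% interval -0.43 to 0.15, limma adjusted p = 0.906), and it was -0.24 to -0.04 on leaving out 1 array. The dimmer had 4.56 and 4.58 in AhR-deficient cells, against 4.59 and 4.73 in wild-type cells, only 0.02 to 0.19 above the 25th percentile. Its difference of -0.09 had the same sign, and its groups did not overlap.

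Cd14 carries lipopolysaccharide to the receptor complex and showed the greatest difference of the set. It had 7.54 and 6.785 in AhR-deficient cells, against 6.47 and 6.44 in wild-type cells. Both AhR-deficient arrays were higher than both wild-type arrays, but they differed from each other by more than AhR-deficient replicate 2 did from the wild-type arrays. The SD was 0.53 between AhR-deficient arrays and 0.02 between wild-type arrays. The difference of 0.71 (SE 0.27) was 1.64-fold with a 95% interval of 0.99 to 2.70, and it did not pass in limma (adjusted p = 0.837, unadjusted p = 0.053). Leaving out AhR-deficient replicate 1 gave 0.33, and leaving out the other AhR-deficient array gave 1.09, with no call in either case. Under all alternatives tried its adjusted p was 0.386 or more.

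Markers of other cells also differed between the arrays, and their part in the difference of Cd14 was not tested. In bulk RNA, more cells of a type and more RNA per cell cannot be told apart. The 15 measured markers of monocytes, macrophages and neutrophils had a summed linear signal of 1580 and 1170 in AhR-deficient cells, against 876 and 1040 in wild-type cells. Of them, 11 and 12 were detected on the AhR-deficient arrays and 10 and 11 on the wild-type arrays, and S100a8, S100a9 and Fcgr1 were below the 25th percentile on all 4. The median difference of the 15 was 0.05, with 7 (46.7%) higher and 2 (13.3%) lower without overlap, against 18.8% and 16.6% of all genes. Lyz1, a lysozyme, had the greatest difference of the list (2.52, SE 0.44, limma adjusted p = 0.533). Its probe set is of the _x_at kind, whose probes may also match unrelated transcripts. It had 7.60 and 6.37 in AhR-deficient cells, against 4.31 and 4.62 in wild-type cells. Adgre1, an antigen of macrophages and Langerhans cells, ran the other way with 6.92 and 5.84 against 7.11 and 7.43. The higher myeloid sum in AhR-deficient cells came from Lyz1, Lyz2, C1qa, C1qb and C1qc alone. Of these, Lyz2, C1qa, C1qb and C1qc differed by 0.93, 1.10, 1.16 and 0.70. Csf3r and Ccr2, also higher without overlap, differed by 0.05 and 0.11, and Mpo, which was lower, by -0.06. The 12 keratinocyte markers summed to 614 and 438 in AhR-deficient cells, against 381 and 414 in wild-type cells, with 9 and 9 detected against 8 and 9. Of the 12, 6 (50%) were higher and 1 (8.33%) lower without overlap, against 18.8% and 16.6% of all genes. The high sum of AhR-deficient replicate 1 came mainly from Dsp, Perp and Krt10. They had 6.60, 6.62 and 6.03 there, against 5.45, 5.41 and 4.79 on AhR-deficient replicate 2. Krt15, Sfn and Col17a1 were below the 25th percentile on all arrays. On AhR-deficient replicate 1, where Cd14 was highest, the myeloid and keratinocyte sums were highest too, as were 31.7% of all genes. The 8 T cell markers summed to 295 and 322 in AhR-deficient cells, against 394 and 353 in wild-type cells, with 4 and 4 detected against 7 and 7, and Cd5 below the 25th percentile on all arrays. Of the 8, 0 were higher and 3 (37.5%) lower without overlap, against 18.8% and 16.6% of all genes. The lower were Cd3g, which differed by -1.26 (SE 0.15), Cd2 by -0.70 (SE 0.12) and Cd3d by -0.56 (SE 0.15). Cd3e, Cd247, Thy1, Lat and Cd5 overlapped, with differences between -0.15 (Lat) and 0.02 (Cd247). None of the 8 passed in limma (lowest adjusted p = 0.374). The 7 mast cell markers summed to 283 and 282 in AhR-deficient cells, against 312 and 298 in wild-type cells, with 7 and 7 detected against 6 and 6. The lower sum came from Kit alone, which differed by -0.64 (SE 0.12, limma adjusted p = 0.533). Of the 7, 3 (42.9%) were higher and 2 (28.6%) lower without overlap, against 18.8% and 16.6% of all genes. Mcpt4 and Cma1 were among the higher, by 0.18 and 0.14. The 8 markers of fibroblasts and endothelium summed to 374 and 394 in AhR-deficient cells, against 409 and 395 in wild-type cells. Of them, 5 and 6 were detected against 6 and 6, and Col3a1 and Lum were below the 25th percentile on all arrays. Without overlap 2 (25%) were higher and 4 (50%) lower, against 18.8% and 16.6% of all genes, with a median difference of -0.03.

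**Figure D2:**
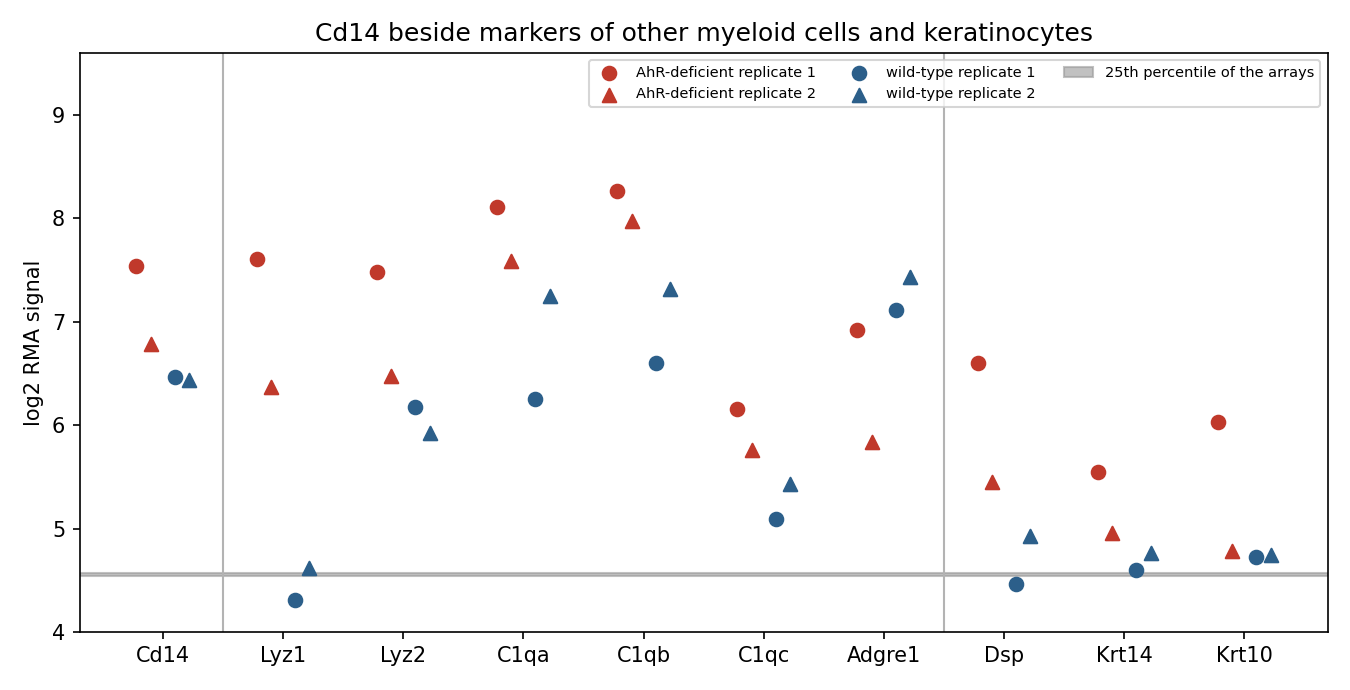
Log2 RMA signal (vertical axis) of Cd14, of 6 myeloid markers and of 3 keratinocyte markers that were picked after their values were seen, with AhR-deficient arrays in red and wild-type arrays in blue (circles replicate 1, triangles replicate 2). The grey band spans the arrays' 25th percentiles. AhR-deficient replicate 1 is the highest array for each of these genes other than Adgre1. Of the markers in the 2 lists that are not shown, Krt1, Krt15, Dsc3, S100a8, S100a9, Mpo, Fcgr1 and Cxcr2 were highest on a wild-type array. Krt5, Trp63, Sfn, Col17a1, Perp and Mrc1 were highest on AhR-deficient replicate 1, and Lama3, Elane, Csf3r and Ccr2 on AhR-deficient replicate 2.

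The genes whose centred values lay closest to those of Cd14 over the 4 arrays were Tap1 (Euclidean distance 0.07), Trim24 (0.08) and Cd1d1 (0.13). Tap1, a peptide transporter for MHC class I, had 8.53 and 7.85 in AhR-deficient cells, against 7.45 and 7.495 in wild-type cells. With 4 arrays this likeness describes little more than a high AhR-deficient replicate 1 over equal wild-type arrays.

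Ly96, also called MD-2, is the lipopolysaccharide-binding partner of Tlr4. It had 6.85 and 7.36 in AhR-deficient cells, against 7.23 and 6.84 in wild-type cells. Replicates of a genotype differed more than the genotypes did, and the groups overlapped. The difference was 0.07 (SE 0.23), and the 95% interval of -0.55 to 0.70 was the widest among the detected genes apart from that of Cd14. The 3 parts of the lipopolysaccharide receptor, Tlr4, Cd14 and Ly96, thus had differences of -0.14, 0.71 and 0.07, none past the test.

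**Figure D3:**
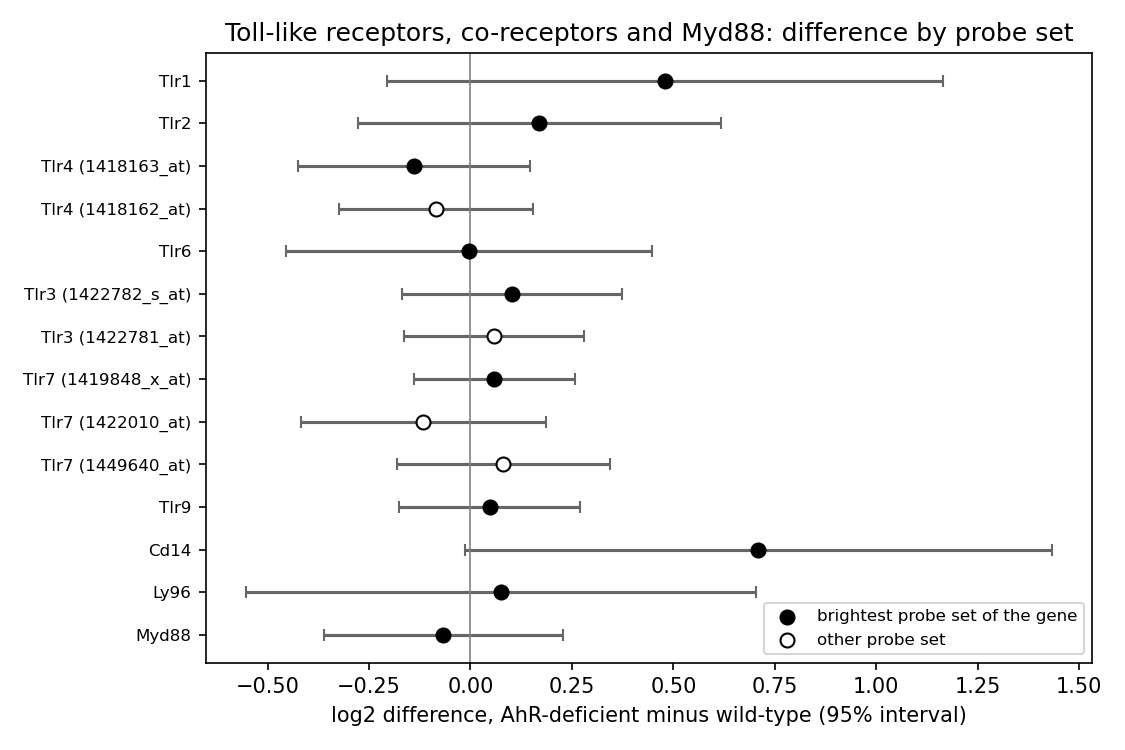
Log2 difference (AhR-deficient minus wild-type, horizontal axis) of each of the 14 probe sets with limma's 95% interval, unadjusted for multiple tests. Filled points are the brightest probe set of a gene and open points the others. All intervals include 0, and that of Cd14 reaches from -0.01 to 1.43.

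Among the endosomal receptors, Tlr9, which senses DNA with unmethylated CpG, was detected on all 4 arrays at 2.32 to 2.46 above the 25th percentile. It had 6.99 and 6.996 in AhR-deficient cells, against 6.89 and 7.002 in wild-type cells. These values overlapped, and wild-type replicate 1 alone stood slightly lower. The difference was 0.05 (SE 0.08), and the 95% interval of -0.18 to 0.27 ended at 1.21-fold.

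Tlr7, the receptor for single-stranded RNA, was measured by 3 probe sets, all detected on all arrays and below the medians. The brightest, whose name ending in _x_at marks probes that may also match unrelated transcripts, had 5.42 and 5.40 in AhR-deficient cells, against 5.35 and 5.36 in wild-type cells. Its groups did not overlap, but the difference was only 0.06 (SE 0.07, limma adjusted p = 0.939). The other 2 probe sets differed by -0.12 and 0.08, so the sign depended on the probe set, and both overlapped.

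Tlr3, the receptor for double-stranded RNA, lay at the limit of detection. One of its probe sets, of the _s_at kind that can match several transcripts, had 4.77 and 4.68 in AhR-deficient cells, against 4.71 and 4.54 in wild-type cells. The other had 3.29 and 3.19 in AhR-deficient cells, against 3.16 and 3.21 in wild-type cells, below the 25th percentile on every array. The differences of 0.10 (SE 0.10) and 0.06 did not pass.

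Markers of B cells and plasmacytoid dendritic cells, which are known for high Tlr7 and Tlr9, are given beside these receptors. The 6 measured B cell markers summed to 490 and 522 in AhR-deficient cells, against 511 and 518 in wild-type cells, with Cd79b below the 25th percentile on all arrays. Most of this sum came from Ighm, whose probe set is of the _x_at kind. It had 8.21 and 8.30 in AhR-deficient cells, against 8.22 and 8.32 in wild-type cells. The 6 plasmacytoid markers summed to 466 and 462 in AhR-deficient cells, against 385 and 393 in wild-type cells. Of them, 4 and 3 were detected on the AhR-deficient arrays and 4 and 3 on the wild-type arrays. The higher sum came from the interferon-inducible Bst2 alone, with 7.52 and 7.73 against 6.44 and 6.84 (difference 0.99). Tcf4 ran the other way without overlap (-0.25), and Spib and Klk1 were below the 25th percentile on all arrays.

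Myd88, the adaptor shared by all of these receptors other than Tlr3, had 6.87 and 6.64 in AhR-deficient cells, against 6.83 and 6.81 in wild-type cells. The groups overlapped, with AhR-deficient replicate 2 lowest. The difference was -0.07 (SE 0.11, limma adjusted p = 0.963). The 95% interval of -0.36 to 0.23 corresponds to 0.78-fold to 1.17-fold.

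Across the 10 genes, 6 had their highest value on AhR-deficient replicate 1, 1 on AhR-deficient replicate 2, 3 on wild-type replicate 2 and 0 on wild-type replicate 1. Of all genes 31.7% were highest on AhR-deficient replicate 1, 20.9% on AhR-deficient replicate 2, 20.2% on wild-type replicate 2 and 27.3% on wild-type replicate 1.

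The rest of the pathway was described with 7 lists, of which 75 of 92 genes had a single-gene probe set. Again 0 genes passed in either direction in limma. At an unadjusted p under 0.05, 11 of the 75 (14.7%) were higher and 2 (2.67%) lower, against 3.5% and 3.04% of all genes. Both AhR-deficient arrays lay above both wild-type arrays for 25 genes (33.3%) and below them for 5 (6.67%), against 18.8% and 16.6% of all genes. The median difference was 0.06. These lists were chosen with earlier results of these data known, so their shares are not independent of those results. No test over the genes was made.

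**Figure D4:**
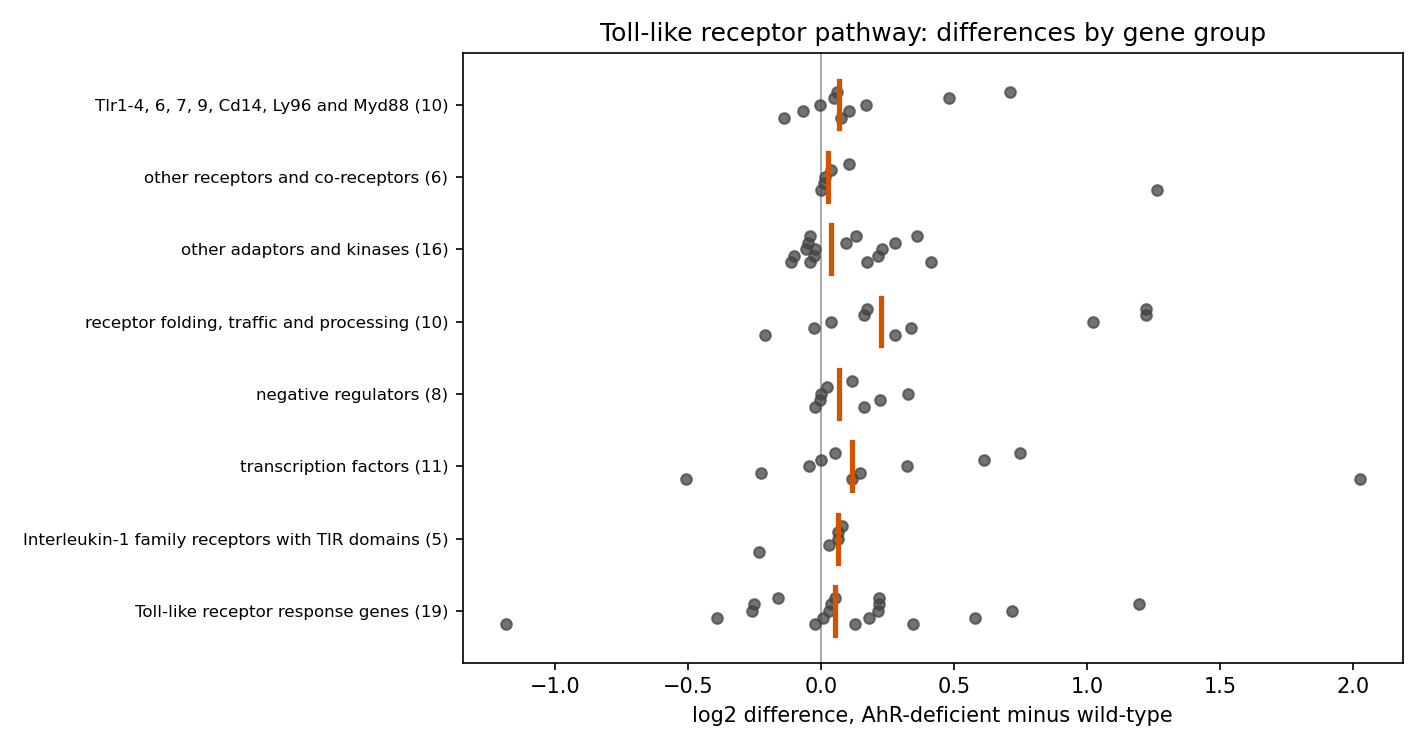
Log2 difference (AhR-deficient minus wild-type, horizontal axis) of each gene, by its brightest probe set, in the set described here and in 7 lists of other pathway genes. Each point is a gene, the orange bar is the median of the list, and the number of measured genes stands in brackets. The set of 10 has a median of 0.07, and the folding, traffic and processing list has the highest median, 0.23.

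Other receptors and co-receptors numbered 6 measured genes. Tlr8, an endosomal receptor for RNA, differed by 0.10 (SE 0.13) and Tlr5, the flagellin receptor, by 0.03 (SE 0.12). Ly86 and Cd180, which form a receptor complex related to Ly96 and Tlr4, differed by 0.00 and 0.01. Cd36, a scavenger receptor that assists Tlr2, had 5.603 and 4.42 in AhR-deficient cells, against 3.75 and 3.75 in wild-type cells. It was above the 25th percentile on AhR-deficient replicate 1 only, and its difference of 1.26 (SE 0.41, limma adjusted p = 0.795) did not pass.

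Among 16 other adaptors and kinases, 6 (37.5%) were higher without overlap and 0 lower, against 18.8% and 16.6% of all genes. Tab3, which links ubiquitin chains to the kinase Map3k7, had 6.73 and 6.67 in AhR-deficient cells, against 6.29 and 6.38 in wild-type cells (difference 0.36, SE 0.08, limma adjusted p = 0.647). Pik3ap1, a phosphoinositide kinase adaptor, differed by -0.11 (SE 0.10). Traf6, the ubiquitin ligase downstream of Myd88, differed by 0.17 (SE 0.08), and Irak1, a kinase recruited by Myd88, by -0.04 (SE 0.11).

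Of 10 genes for receptor folding, traffic and processing, 4 (40%) were higher without overlap and 0 lower, against the same 18.8% and 16.6%, and the median was 0.23. Ctsb, a lysosomal protease, had 10.35 and 9.94 in AhR-deficient cells, against 8.71 and 9.14 in wild-type cells (difference 1.22, SE 0.21, limma adjusted p = 0.533). With its probe sets averaged, the difference of Ctsb was 0.73. Ctsl and Lgmn, proteases that take part in cutting endosomal receptors, differed by 1.22 (SE 0.33) and 1.02 (SE 0.28). None of these passed. Unc93b1, which carries nucleic acid-sensing receptors to endosomes, had 6.484 and 6.479 in AhR-deficient cells, against 6.308 and 6.313 in wild-type cells. It differed by 0.17 (SE 0.07, limma adjusted p = 0.857). Ap3b1, a subunit of a sorting adaptor, differed by -0.21 (SE 0.15).

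Negative regulators showed small differences, with 2 of 8 (25%) higher without overlap and 0 lower, against 18.8% and 16.6% of all genes. Dusp1, a MAP kinase phosphatase, differed by 0.22 (SE 0.10), and Nfkbia, the NF-kB inhibitor, by -0.02 (SE 0.33).

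Among 11 transcription factors, 5 (45.5%) were higher and 2 (18.2%) lower without overlap, where all genes gave 18.8% and 16.6%. Irf7, which acts downstream of Tlr7 and Tlr9, had 6.73 and 6.89 in AhR-deficient cells, against 6.11 and 6.01 in wild-type cells (difference 0.75, SE 0.10, limma adjusted p = 0.402). Irf8, a factor of dendritic cell development, ran the other way with 8.91 and 8.52 in AhR-deficient cells, against 9.15 and 9.29 in wild-type cells (-0.51, SE 0.16, limma adjusted p = 0.770). Neither passed.

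The interleukin-1 family receptors, which share the TIR domain and Myd88, lay between -0.23 (Il1r1, SE 0.15) and 0.08 (Il1rap, SE 0.08) over 5 genes. Of 19 genes known to be induced through Toll-like receptors, 6 (31.6%) were higher and 2 (10.5%) lower without overlap, beside 18.8% and 16.6% of all genes, and the median was 0.05. The cytokine Il1b had 11.66 and 11.96 in AhR-deficient cells, against 10.98 and 10.25 in wild-type cells (difference 1.19, SE 0.28, limma adjusted p = 0.670). Ptgs2, an inducible prostaglandin synthase, had 4.92 and 5.85 in AhR-deficient cells, against 6.805 and 6.34 in wild-type cells (-1.19, SE 0.36, limma adjusted p = 0.767). The difference of Ptgs2 was -0.72 without AhR-deficient replicate 1, -1.65 without the other AhR-deficient array and -0.68 with its probe sets averaged. In both lists values went in both directions, and no gene passed.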

How the data were processed

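Per the labels' protocols, amplified and biotinylated RNA was hybridised to MOE430A arrays of Affymetrix. The deposited values are log2 signals of probe sets, made with affy and RMA per the submitters' processing notes. Versions and a genome build are not given in the sources used here. Of 22690 probe sets, 64 controls were left out. The annotation gave 1 symbol to 20380, several to 691 and none to 1555, and 0 probe sets with several symbols held a gene of the set. For a gene, the probe set that was brightest on average over the 4 arrays was used.

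The comparison used lmFit and eBayes of limma 3.58.1 under R 4.3.3 (two-sided tests, residual degrees of freedom 2, prior 2.27), with Benjamini-Hochberg adjustment over 22626 probe sets and a threshold of 0.05. The median SE was 0.10, and the number of arrays limits the precision. Intervals are 95% from the moderated test. The steps were tested on simulated data with independent noise, only for the sign and size of large known changes. Deviations of a whole array were not simulated. A p-value here sets the genotype difference against the spread between arrays of a genotype, moderated over all probe sets. The labels call the arrays biological replicates without naming animals, so how far that spread is one between animals is not known.

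The members and lists were chosen with earlier results of these data known. All 10 genes were named. From each other list the text names the detected gene with the smallest p in each direction. Beyond that rule it names Cd36, Tlr5, Ly86, Cd180, Traf6, Irak1, Ctsl, Lgmn, Unc93b1 and Fos, chosen after their values were seen. Marker sums are sums of signals taken back to the linear scale. Alternatives were blocks, priors, a filter on dim probe sets, scaling, an offset, array weights, leaving out arrays and averaging probe sets.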

Additional observations from a re-analysis of the deposited data

How the results depend on the processing

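Of the 10 genes, 0 passed in either direction in limma under every alternative run, and at most 2 had an unadjusted p under 0.05. With array medians as the limit, 5 in place of 8 genes were detected on all 4 arrays, and 6830 in place of 10024 of all 12393 genes. Of 139 values of these genes under alternatives, 132 kept their sign and 7 turned, all on leaving out an array. Values without an array ranged from -0.044 to 0.384 for Tlr2, -0.215 to 0.208 for Tlr6, -0.0097 to 0.104 for Tlr9, -0.180 to 0.330 for Ly96, -0.185 to 0.051 for Myd88, -0.053 to 0.259 for Tlr8 -0.445 to 0.396 for Nfkbia (0.016 with its probe sets averaged), -0.108 to 0.179 for Tlr5, -0.146 to 0.148 for Ly86, -0.066 to 0.088 for Cd180 and -0.149 to 0.061 for Irak1. With values quantile normalised again, Ly86 was -0.0096 and Cd180 -0.0014, and with median centring -0.011 and -0.00068. The sign held without any array for Tlr1 (0.222 to 0.736), Cd14 (0.334 to 1.085), Tlr3 (0.015 to 0.192), Tlr4 (-0.241 to -0.037) and Tlr7 (0.047 to 0.071, and 0.008 with its probe sets averaged). It also held for Pik3ap1 (-0.188 to -0.039), Ap3b1 (-0.381 to -0.039), Irf8 (-0.702 to -0.316), Il1r1 (-0.417 to -0.0496), Dusp1 (0.125 to 0.321), Il1rap (0.046 to 0.112, and 0.017 averaged), Ptgs2 (-1.648 to -0.723), Cd36 (0.67 to 1.85), Ctsl (0.884 to 1.559) and Lgmn (0.671 to 1.369).

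Over all probe sets, 4 were called lower and 0 higher. There were 7 lower and 1 higher with a variance trend, 0 lower with 16 added on the linear scale, and 0 lower on leaving out any array. The replicate block gave 0 lower and 0 higher. The labels state no pairing, and replicates with the same number deviated from their group means in opposite directions (r = -0.31 over probe sets). A crossed replicate block, added after seeing the data, gave 0 lower and 0 higher. It changed no call for the 10 genes. Tlr1 could not be fitted without dim probe sets, as it was among them.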
